A study of Mus musculus with 34 samples.

Results

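The apolipoprotein and fat absorption genes examined here are 10 named mouse genes of 21938 protein-coding genes. They were chosen by name, with earlier results of these data known. Among them are the apolipoproteins Apoa1, Apoa4, Apoc3 and Apob, the lipid transfer protein gene Mttp, and the fatty acid binding protein genes Fabp1 and Fabp2. The others are the fatty acid receptor gene Cd36 and the diacylglycerol acyltransferases Dgat1 and Dgat2. For each gene the H3K4me3 signal was averaged over 1000 bp on each side of its most upstream annotated 5′ end (GENCODE M21, mm10). H3K4me3 had been profiled by CUT&RUN, in which protein A fused to micrococcal nuclease is brought to an antibody on unfixed nuclei and the cut fragments are sequenced. The cells were villus cells scraped from the small intestine of C57BL/6J mice, for which the study lists 2 wild-type mice and 2 ApcMin/+ mice. Each genotype has 2 libraries, numbered as replicates, and the labels do not say which mouse each came from. ApcMin/+ mice carry 1 mutant germline copy of Apc, so the allele is present in every cell of the animal, and the tissue was taken while it looked normal. The labels give an age of 5 weeks for all 4 libraries, and the study's methods give 6 weeks. The comparison of the genotypes asks whether this euchromatin mark, in early carcinogenesis, differs at the genes of a main task of the villus, the uptake of dietary fat.

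Enterocytes take up fatty acids and monoacylglycerol from the gut lumen, carry them on fatty acid binding proteins to the endoplasmic reticulum and esterify them to triglyceride. The triglyceride transfer protein MTP, encoded by Mttp, loads this fat onto apolipoprotein B, and the particle leaves the cell as a chylomicron that also carries apolipoproteins A-I, A-IV and C-III. H3K4me3 is a modification of histone H3 found at the 5′ ends of genes in use, most often at promoters rich in CpG dinucleotides.

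The libraries differed in depth and enrichment before any gene was considered. The tag totals were 1430000 for wild-type replicate 1, 4790000 for wild-type replicate 2, 3700000 for ApcMin/+ replicate 1 and 5470000 for ApcMin/+ replicate 2. The deposited signal is coverage per base scaled to 10000000 tags, so it is relative and has no absolute unit. A promoter was tested if its signal averaged 2 or more over the libraries, which 9930 did, and the median of these was 4.53 and 3.06 for wild type and 13.2 and 4.18 for ApcMin/+. ApcMin/+ replicate 1 therefore stood apart from the other three, with the lowest signal away from promoters and enriched regions, 0.192 against 0.272 to 0.316. In the paragraphs on single genes the signal is given on the deposited scale. Fitted differences between genotypes are given there with each library relative to its own median tested promoter. Wild-type replicate 1 was the least precise, with a median of 13.0 fragments per tested promoter against 29.3 to 97.7 in the others. Of 8 markers of villus enterocytes all passed the filter on low signal, and their summed signal was 28.6 to 167 in the 4 libraries. None of 8 markers passed in each of the lists for immune cells, endothelium, hepatocytes and mesenchyme, and their summed signal was 2.79 to 8.996. In the adipocyte list, 2 of 8 passed, Pparg and Cidec, which enterocytes are also known to express, and its summed signal was 8.47 to 18.1. No marker was at 0 in all 4 libraries. In scraped villus cells, fewer cells carrying the mark and less of the mark per cell cannot be told apart.

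These promoter sequences are shown because they differ in CpG content and in the mark found at the gene: Fabp2, Fabp1, Apoa1 and Apob passed the filter on low signal and Cd36 did not at any annotated start. They are RefSeq promoter windows (GRCm38.p6, the assembly of mm10), written 5′ to 3′ on the gene's strand, with CpG dinucleotides in capitals. Each begins 250 bases before the RefSeq start and stops at that start or before the first base of a GENCODE exon. Fabp2 lies at chr3:122894822-122895071 (+ strand), Fabp1 at chr6:71199629-71199826 (+), Apoa1 at chr9:46228380-46228579 (+), Apob at chr12:7977427-7977647 (+) and Cd36 at chr5:17835897-17836146 (− strand). The RefSeq start of Cd36 is 52905 bp downstream of the GENCODE 5′ end that the signal window was centred on, and that of Mttp 1550 bp downstream.
Fabp2: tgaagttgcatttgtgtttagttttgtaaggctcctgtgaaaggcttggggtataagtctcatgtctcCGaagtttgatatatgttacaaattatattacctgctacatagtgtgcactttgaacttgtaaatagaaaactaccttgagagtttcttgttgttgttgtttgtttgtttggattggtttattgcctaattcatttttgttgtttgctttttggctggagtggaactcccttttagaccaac
Fabp1: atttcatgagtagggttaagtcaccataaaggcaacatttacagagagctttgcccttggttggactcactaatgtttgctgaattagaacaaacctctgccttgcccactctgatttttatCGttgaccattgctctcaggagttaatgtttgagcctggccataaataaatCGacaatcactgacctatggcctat
Apoa1: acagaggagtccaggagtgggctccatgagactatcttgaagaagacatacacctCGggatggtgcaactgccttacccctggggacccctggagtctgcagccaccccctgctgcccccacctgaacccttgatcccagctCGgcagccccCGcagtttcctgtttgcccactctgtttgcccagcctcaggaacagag
Apob: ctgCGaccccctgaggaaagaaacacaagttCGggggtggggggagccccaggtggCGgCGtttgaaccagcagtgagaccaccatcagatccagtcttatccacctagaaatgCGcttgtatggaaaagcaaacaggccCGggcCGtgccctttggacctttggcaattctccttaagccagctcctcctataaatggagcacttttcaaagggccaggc
Cd36: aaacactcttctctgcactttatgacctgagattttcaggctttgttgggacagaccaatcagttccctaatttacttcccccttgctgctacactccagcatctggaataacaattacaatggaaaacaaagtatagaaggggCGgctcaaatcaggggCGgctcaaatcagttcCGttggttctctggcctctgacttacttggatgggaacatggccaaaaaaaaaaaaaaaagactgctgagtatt

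The stretches printed held 1 CpG for Fabp2, 2 for Fabp1, 3 for Apoa1, 7 for Apob and 3 for Cd36. Over the full 250 bases before the RefSeq start, the count was 1 for Fabp2 and Apoa4, 2 for Fabp1, 3 for Cd36, 4 for Apoa1, 7 for Apob and 25 for Mttp, against a median of 6 over 32851 mouse promoter windows in RefSeq. RefSeq windows were matched for 7 of the 10 genes, and Apoc3, Dgat1 and Dgat2 had no entry. The same 250 bases were searched for 8 motifs on both strands. The TATA box letters TATAAA occurred in 2 of the 7 windows and in 12.4% of all windows. They started 30 bases before the RefSeq start of Fabp1 and 60 before that of Apob. These RefSeq starts lie 52 bp (Fabp1) and 29 bp (Apob) downstream of the GENCODE 5′ ends used for the signal. The letters at Fabp1 are thus inside the GENCODE exon and outside the stretch printed, whereas those at Apob lie before the GENCODE 5′ end. TTTATNG, a core of sites for the intestinal factor CDX2, occurred in 3 of 7, Fabp1, Fabp2 and Apob, and in 9.81% of all windows. In Apob it was read on the opposite strand and overlapped the TATA letters. GTTAAT, a piece of the site of the HNF1 factors, occurred in Fabp1 alone of the 7 and in 6.43% of all windows. AGGTCA, the core of nuclear receptor sites, occurred in Fabp1 and Cd36 and in 14.02% of all. CCAAT occurred in Fabp2 and Cd36 (33.9% of all), and GGGCGG in Cd36 (32.7% of all). AGATAA, bound by GATA factors, and the HNF4 letters CAAAGTCCA were in none of the 7 and in 9.99% and 0.384% of all. These are matches of letters, and binding was not measured.

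**Figure D1:**
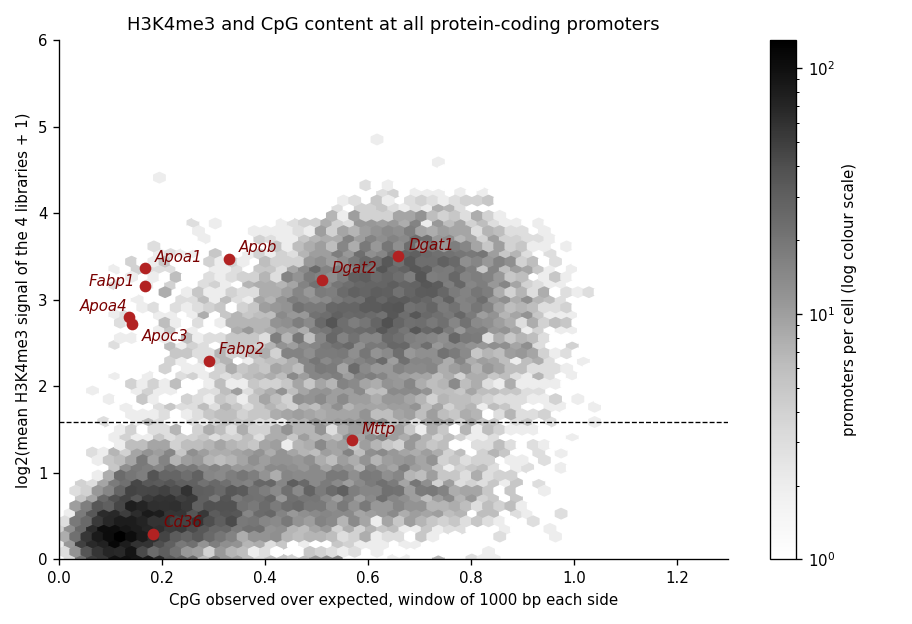
Mean H3K4me3 signal of the 4 libraries (vertical axis, log2 of signal + 1) against the CpG observed over expected ratio of the same window (horizontal axis) for all 21938 protein-coding genes, with grey cells coloured by the number of promoters and the 10 genes in red. The dashed line is the filter at a mean signal of 2, which Mttp (1.596) and Cd36 (0.227) did not reach, whereas Apoa1, Apoa4, Apoc3 and Fabp1 lie above it at ratios of 0.137 to 0.167.

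In the windows over which the signal was averaged, which for Cd36 and Mttp lie away from the RefSeq windows, the ratio of observed to expected CpG was 0.167 at Apoa1 and Fabp1, 0.137 at Apoa4, 0.141 at Apoc3, 0.183 at Cd36, 0.290 at Fabp2, 0.330 at Apob, 0.510 at Dgat2, 0.569 at Mttp and 0.659 at Dgat1. The median was 0.640 over promoters that passed the filter and 0.236 over those that did not. Of 5209 genes with a ratio under 0.2, 3.44% passed, and 4 of the 5 genes named here did, all but Cd36. Of 4293 genes between 0.2 and 0.4, 17.3% passed, and Apob and Fabp2 were among them. The genes were chosen by name for their part in fat absorption, with earlier results of these data known. These shares therefore describe them and were not tested.

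The mark was highest on average at Dgat1, Apob and Apoa1 and not detectable at this depth at Cd36. By the mean signal of the 4 libraries, all over windows of 1 width, the order was Dgat1 (10.3), Apob (10.1), Apoa1 (9.29), Dgat2 (8.39), Fabp1 (7.90), Apoa4 (5.96), Apoc3 (5.59), Fabp2 (3.91), Mttp (1.596) and Cd36 (0.227). Neighbours among the first 7 changed places between libraries, and their differences were smaller than the spread between libraries. In wild-type replicate 1 Apoa4 was the highest of all, with 7.64, whereas in ApcMin/+ replicate 1 Dgat1 was, with 22.4.

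**Figure D2:**
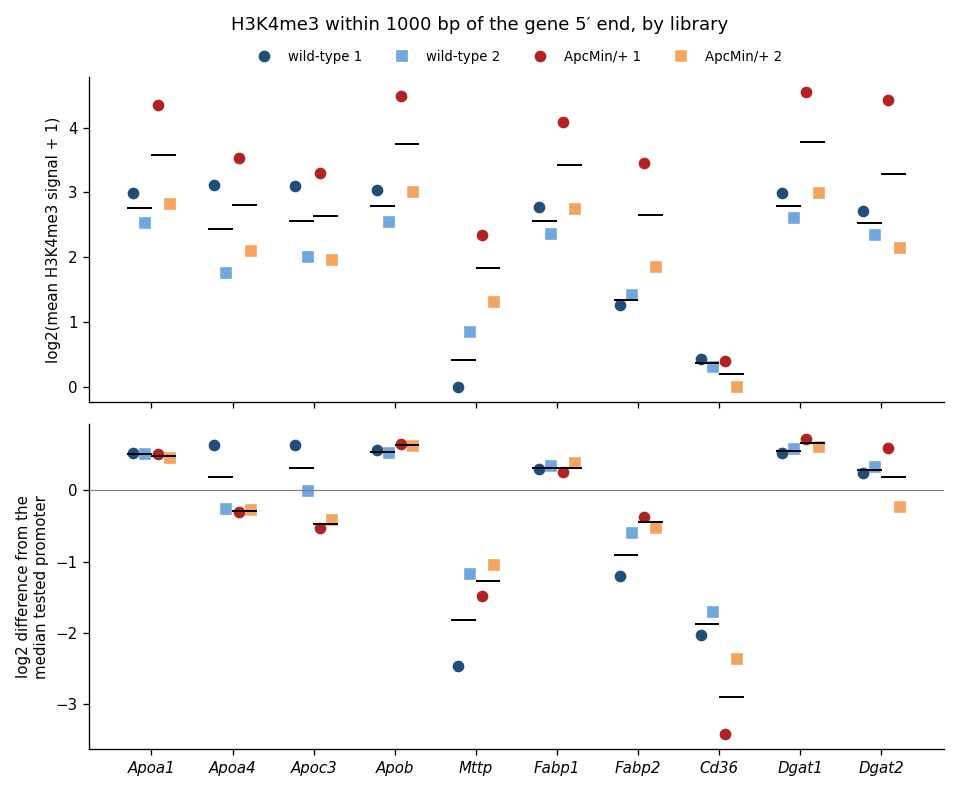
H3K4me3 at each of the 10 genes in each of the 4 libraries (points) with the mean of each genotype (black bars, n = 2), as log2 of signal + 1 in the upper panel and as the log2 difference from the library's median tested promoter in the lower panel. ApcMin/+ replicate 1 is highest at every gene but Cd36 in the upper panel, whereas in the lower panel the 4 points of Apoa1 lie between 0.45 and 0.53 and the ApcMin/+ points of Apoc3 lie below both wild-type points.

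Apoa1, the gene of the main protein of high density lipoprotein, lies at chr9:46228580-46230466 on the + strand. Its promoter signal, replicate 1 before replicate 2 here and in what follows, was 6.99 and 4.78 in wild type and 19.3 and 6.08 in ApcMin/+, from 20, 45.7, 143 and 66.6 fragments. The groups overlapped, since ApcMin/+ replicate 2 was below wild-type replicate 1. Relative to the median promoter of its own library, Apoa1 was at 0.53 and 0.51 in wild type and at 0.52 and 0.45 in ApcMin/+ on the log2 scale, a difference of −0.03 ± 0.28 (limma, SE, n = 2 per genotype). Its rank among all genes ranged from percentile 88.9 to 93.4.

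Apob encodes the protein that forms the frame of each chylomicron and lies at chr12:7977648-8016835 on the + strand. Its signal was 7.21 and 4.83 in wild type and 21.4 and 7.01 in ApcMin/+, and the groups overlapped on the deposited scale. Against the median promoter it stood at 0.57 and 0.52 in wild type and 0.66 and 0.63 in ApcMin/+, which do not overlap, with a difference of 0.10 ± 0.29 (limma, SE, n = 2 per genotype). An annotated start of Apob 34711 bp into the gene had a mean signal of 0.808, against 10.1 at the first.

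Apoa4, whose product is made mainly by the intestine in response to fat, lies at chr9:46240696-46243459 on the + strand. Its signal was 7.64 and 2.402 in wild type and 10.5 and 3.27 in ApcMin/+. Wild-type replicate 1 was thus well above wild-type replicate 2 and ApcMin/+ replicate 2. Its level relative to the median promoter was 0.64 and −0.26 in wild type and −0.30 and −0.28 in ApcMin/+, and the 3 deeper libraries lay within 0.05 of each other. The relative difference of −0.48 between genotypes fell to −0.03 without wild-type replicate 1, where the promoter held 21.9 fragments.

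Apoc3 encodes an inhibitor of triglyceride clearance and lies at chr9:46232933-46235636 on the − strand. Its signal was 7.57 and 3.04 in wild type and 8.88 and 2.89 in ApcMin/+, so the genotypes overlapped and were nearly alike on the deposited scale. The level relative to the median promoter was 0.63 and −0.01 in wild type and −0.52 and −0.41 in ApcMin/+, without overlap. This was the lowest relative difference of the 8 tested members, −0.78 ± 0.30 (SE), with an unadjusted p of 0.00978 and a limma adjusted p over all promoters of 1.00. Without wild-type replicate 1 it was −0.46. In the lower panel of the plot by library, Apoc3 and Apoa4 are the genes at which wild-type replicate 1 stands farthest above the rest.

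Fabp1, the fatty acid binding protein shared with liver, lies at chr6:71199827-71205023 on the + strand. Its signal was 5.82 and 4.14 in wild type and 15.9 and 5.73 in ApcMin/+. On the scale relative to the median promoter all 4 libraries lay between 0.25 and 0.38, the genotypes overlapped and the difference was −0.01 ± 0.28 (SE).

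Fabp2, the intestinal fatty acid binding protein, lies at chr3:122895072-122899506 on the + strand. Its signal was 1.39 and 1.68 in wild type and 9.95 and 2.60 in ApcMin/+, and both ApcMin/+ libraries were above both wild-type libraries. The wild-type values came from 4.0 and 16.1 fragments and were both under the filter of 2, which Fabp2 passed only through its ApcMin/+ signal. On the relative scale it was −1.21 and −0.60 in wild type and −0.37 and −0.52 in ApcMin/+, again without overlap, and the difference was 0.46 ± 0.42 (limma, SE). Without wild-type replicate 1 that difference was 0.15.

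Dgat1 encodes the acyltransferase that makes most triglyceride in the enterocyte and lies at chr15:76502015-76511953 on the − strand. Its signal was 6.93 and 5.06 in wild type and 22.4 and 6.94 in ApcMin/+. The genotypes did not overlap, but ApcMin/+ replicate 2 and wild-type replicate 1 were at 6.94 and 6.93, a gap of less than 1 fragment in either library. On the relative scale it was 0.52 and 0.58 in wild type and 0.72 and 0.62 in ApcMin/+, a difference of 0.12 ± 0.29 (SE).

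Dgat2, which encodes a second, unrelated enzyme for the same step, lies at chr7:99153658-99182719 on the − strand. Its signal was 5.58 and 4.08 in wild type and 20.5 and 3.42 in ApcMin/+, the highest and the lowest value both in ApcMin/+. The relative levels of the ApcMin/+ libraries were 0.60 and −0.23 and those of wild type 0.25 and 0.32, a difference of −0.10 ± 0.28 (SE) that became −0.52 without ApcMin/+ replicate 1.

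Cd36 encodes a scavenger receptor for fatty acids and lies at chr5:17781690-17888801 on the − strand. Its signal was 0.348 and 0.239 in wild type and 0.320 and 0 in ApcMin/+, which is 0 to 1.67 times the signal of the same library away from promoters and enriched regions. It rested on at most 2.4 fragments in any library, and the 0 of ApcMin/+ replicate 2 allows up to 3 fragments, a signal of 0.274. GENCODE places 6 transcript 5′ ends of Cd36 in 3 groups over 53105 bp, and the mean signal was 0.130 to 0.372 at all of them. No enriched region lay within 5000 bp of the gene 5′ end. The mark was therefore not detectable at Cd36 in these libraries at this depth, and the gap between genotypes is within the counting error. These counting limits cover fragments only and not the spread between animals.

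Mttp, on the − strand at chr3:138089854-138144968, had a low signal by the rule and a higher one at its other starts. The means over the 4 libraries there were 6.70 and 6.02, against 1.596 by the rule. At both of those starts only ApcMin/+ replicate 1 was above the median tested promoter of its library. Within 1000 bp of the gene 5′ end the signal of Mttp was 0 and 0.808 in wild type and 4.08 and 1.498 in ApcMin/+. The groups did not overlap. The 0 of wild-type replicate 1 allows up to 3 fragments, a signal of 1.05. That 5′ end belongs to a retained-intron transcript of 2706 bp. The 2 protein-coding transcripts of Mttp start 1580 and 13591 bp downstream of it.

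At the protein-coding start 1580 bp downstream, the signal was 3.84 and 2.52 in wild type and 17.0 and 3.39 in ApcMin/+, and the genotypes overlapped. This start lies 60 bp from the nearest start of Trmt10a, a transfer RNA methyltransferase gene on the other strand. Most of the mark there lay on the side of Trmt10a, with 6.98, 4.61, 25.5 and 5.66 in the 1000 bp upstream of the Mttp start and 0.698, 0.418, 8.57 and 1.11 in the 1000 bp downstream (wild type first, then ApcMin/+). The mark at this CpG-rich window cannot be told apart between the 2 genes.

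At the start 13591 bp downstream, which has no start of another protein-coding gene within 2000 bp, the signal was 2.54 and 2.65 in wild type and 16.2 and 2.72 in ApcMin/+. Both ApcMin/+ values were higher, though ApcMin/+ replicate 2 (2.72, 29.8 fragments) was nearly equal to wild-type replicate 2 (2.65, 25.4 fragments). That gap was smaller than the one between the wild-type libraries. At the gene 5′ end, 38.5% of all tested promoters were higher in ApcMin/+ without overlap. An enriched region of 8200 bp, chr3:138126501-138134700, covered this start, whereas the region at the upstream starts, chr3:138143001-138145000, was 2000 bp long. The mean signal of the 8200 bp was 4.52 and 3.15 in wild type and 14.5 and 4.03 in ApcMin/+, from 53.0, 123.6, 441 and 181 fragments. The genotypes overlapped in this region. Downstream of this start the signal was 2.83, 4.40, 28.5 and 4.11 over 1000 bp, against 2.296, 0.939, 4.02 and 1.37 upstream of it.

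**Figure D3:**
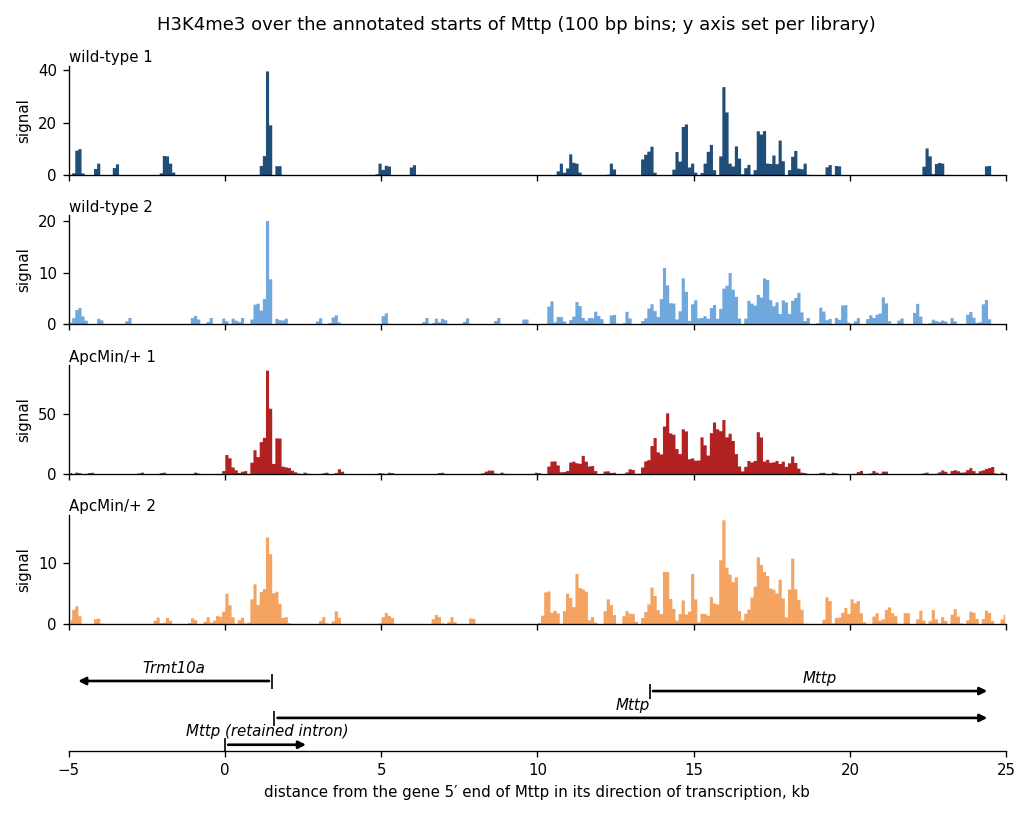
H3K4me3 signal in 100 bp bins over the 5′ part of Mttp in the 4 libraries (vertical axes set per library), against the distance in kb from the gene 5′ end in the direction of transcription. Arrows show the transcripts of Mttp and Trmt10a with their starts as ticks. In each library the narrow peak, highest in the bin centred 1350 bp from the gene 5′ end, lies among the starts of Trmt10a, and a broad block follows the internal start at 13591 bp.

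At 9 of the 10 genes, all but Cd36, more of the window's signal lay downstream of the 5′ end than upstream. At Mttp part of the downstream signal was the flank of the peak among the starts of Trmt10a and cannot be assigned to Mttp alone. The share of the window's signal that was downstream, over the 4 libraries, was 95.2% at Fabp1, 91.9% at Fabp2, 90.2% at Apob, 84.8% at Mttp, 84.7% at Dgat1, 82.9% at Apoa4, 76.5% at Apoa1, 72.6% at Dgat2 and 67.0% at Apoc3, and 11.5% at Cd36, where few fragments fell. The median over the tested promoters was 68.2% and their 90th percentile 89.2%, so Fabp1, Fabp2 and Apob lay above that percentile and Apoc3 just below the median. Tested promoters poor in CpG leaned further downstream. Their median was 80.2% at a CpG ratio under 0.2 and 78.9% from 0.2 to 0.4. Of the genes with a ratio under 0.2, Apoa1 and Apoc3 lay below that median of 80.2%, and Apoa4 and Fabp1 above it. At Fabp1 the mean upstream of the start was 0.0268 and 0.776 in wild type and 0.825 and 1.38 in ApcMin/+. Downstream of it the mean was 11.6 and 7.51 in wild type and 31.0 and 10.1 in ApcMin/+. The maximum of Fabp2 lay 450 to 470 bp inside the gene in all 4 libraries, from 8.95 in wild-type replicate 2 to 65.5 in ApcMin/+ replicate 1.

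The mark also ran far into several of these genes. Regions enriched at least 5 times over the genome-wide mean in the average of the 4 libraries reached the windows of 9 of the 10 genes, all but Cd36. They were 9500 bp long at Apoa1 and Apoc3, which share 1 region, 6800 bp at Dgat1, 5000 bp at Apoa4, 4600 bp at both Apob and Fabp1, 3700 bp at Dgat2, 3400 bp at Fabp2 and 2000 bp at Mttp. The shared region spans both genes and the stretch between them, so its length is not its reach into either gene. Over the tested promoters the median length was 2000 bp and the 90th percentile 3900 bp, and 8.91% were longer than 4000 bp. Those with a CpG ratio under 0.2, as at Apoa1, Apoa4, Apoc3 and Fabp1, had a median of 3000 bp. From 0.2 to 0.4 the median was 1900 bp. Regions longer than 4000 bp reached 6 of the 10 genes here, all of them tested, with the shared region counted for both Apoa1 and Apoc3. ApcMin/+ replicate 1 weighs most in that average. From 2000 to 5000 bp inside Apob the signal was still 3.60 and 3.65 in wild type and 6.997 and 3.89 in ApcMin/+, against 0.697, 0.348, 0.0901 and 0.609 in the stretch from 2000 to 5000 bp upstream. Dgat1 held 3.17 and 2.82 in wild type and 13.0 and 4.24 in ApcMin/+ over the same distance inside the gene.

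**Figure D4:**
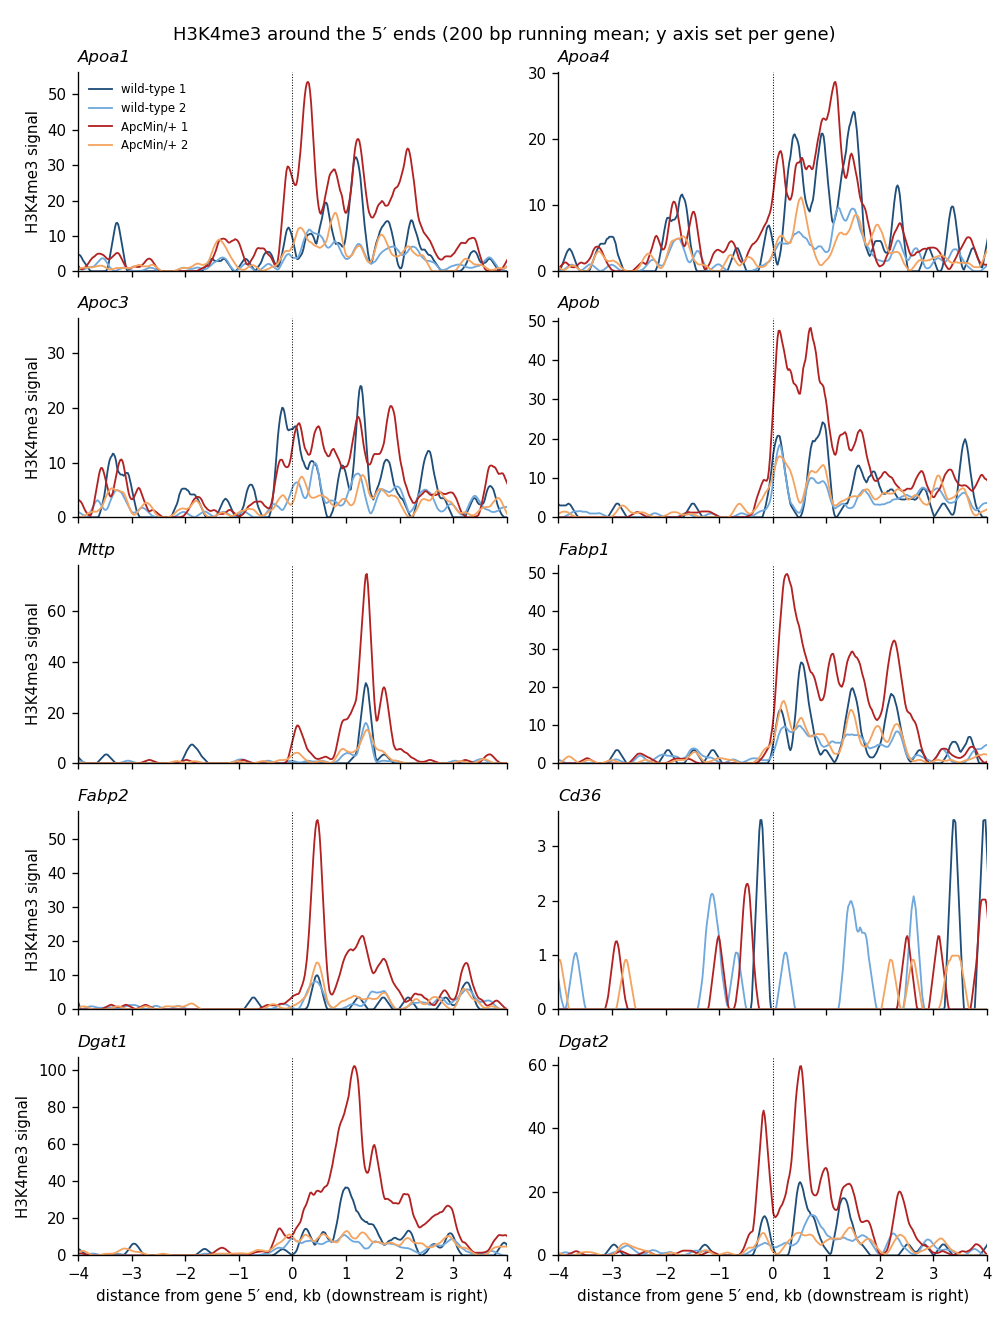
H3K4me3 signal (200 bp running mean, vertical axes set per gene) against the distance in kb from the gene 5′ end for the 10 genes in the 4 libraries, with downstream to the right. At Fabp1 and Fabp2 the signal rises at or shortly after the 5′ end, with a mean of at most 1.38 in the 1000 bp before it in any library, at Mttp the peak (maximum of a 100 bp running mean) is 1350 to 1390 bp downstream, and at Cd36 there are only isolated fragments.

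Apoa1, Apoc3 and Apoa4 lie together on chromosome 9, a cluster in which Apoc3 is read in the opposite direction to its neighbours. Their 5′ ends are 7056 bp (Apoa1 to Apoc3) and 5060 bp (Apoc3 to Apoa4) apart, so the windows of 1000 bp on each side do not overlap. The region shared by Apoa1 and Apoc3, chr9:46227001-46236500, had a mean signal of 6.87 and 3.67 in wild type and 12.7 and 4.01 in ApcMin/+. The region of Apoa4, chr9:46239901-46244900, had 6.98 and 2.95 in wild type and 8.25 and 3.24 in ApcMin/+. Between Apoc3 and Apoa4 lay 2 short regions, chr9:46237301-46237700 and chr9:46238401-46239300. The second, of 900 bp, had 5.43 and 2.60 in wild type and 6.49 and 2.95 in ApcMin/+. In all 4 of these regions the genotypes overlapped.

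Dividing one promoter of the cluster by another removes the scaling between libraries, but not their background signal, which differed (0.192 to 0.316). The ratio of Apoc3 to Apoa1 was 1.08 and 0.635 in wild type and 0.460 and 0.476 in ApcMin/+, without overlap, and that of Apoa4 to Apoa1 was 1.09 and 0.503 in wild type and 0.545 and 0.538 in ApcMin/+, with overlap. Small differences could part the genotypes too. The ratio of Apoa1 to Apob, which lies outside the cluster, was 0.969 and 0.989 in wild type and 0.902 and 0.868 in ApcMin/+, also without overlap. The share of other promoter pairs without overlap was not taken. In wild-type replicate 1 each of these ratios rests on about 20 fragments per promoter, and with 2 libraries per genotype no ratio was tested.

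Within 50000 bp of the 5′ ends of this cluster GENCODE lists 3 more protein-coding genes. Apoa5, an apolipoprotein made by the liver, starts 40053 bp from Apoa1 and had a signal of 0.349 and 0.626 in wild type and 0.413 and 1.37 in ApcMin/+, with no enriched region at its window. Zpr1, which encodes a zinc finger protein, starts 44484 bp from Apoa1 and had 6.97 and 2.50 in wild type and 15.4 and 4.93 in ApcMin/+. Bud13, a gene for a splicing factor, starts 54428 bp away and had 6.97 and 4.28 in wild type and 15.2 and 4.07 in ApcMin/+. Zpr1 and Bud13 have CpG ratios of 0.538 and 0.540 and regions of 1700 and 1600 bp, shorter than those of Apoa1, Apoc3 and Apoa4.

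**Figure D5:**
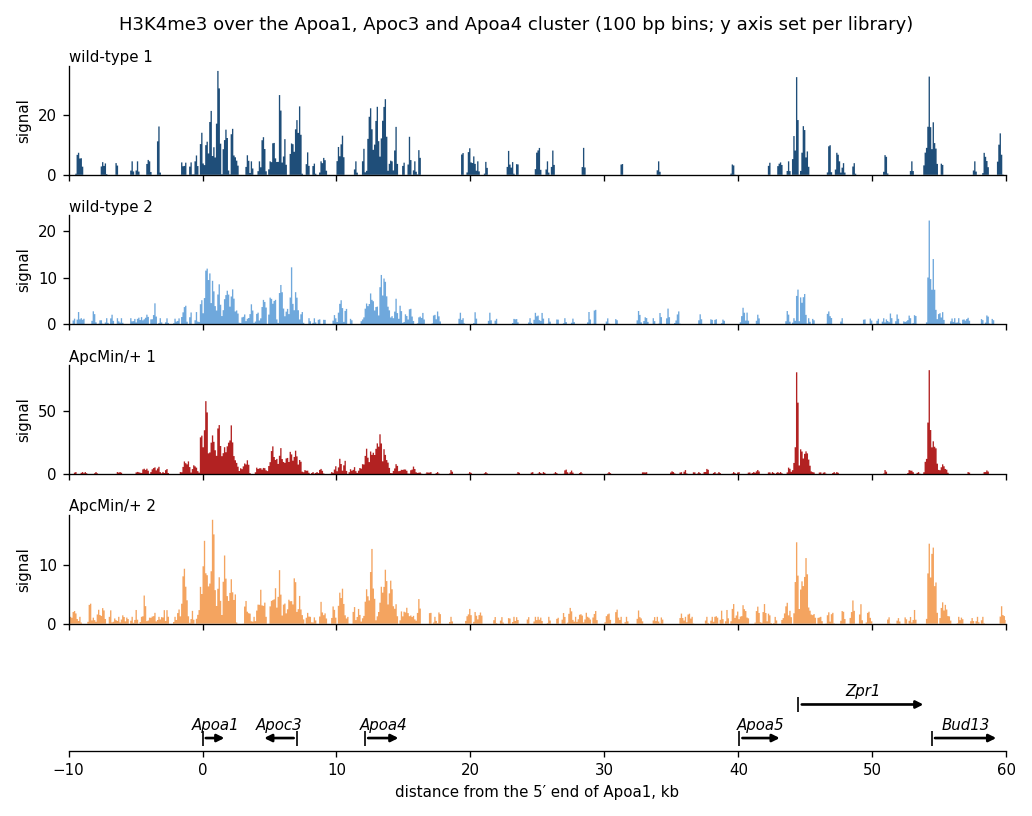
H3K4me3 signal in 100 bp bins in the 4 libraries (vertical axes set per library) against the distance in kb from the 5′ end of Apoa1, with genes drawn as arrows from their 5′ ends. Broad blocks cover Apoa1, Apoc3 and Apoa4 in each library, the start of Apoa5, 40053 bp from that of Apoa1, carries little signal, and narrow peaks mark the starts of Zpr1 and Bud13.

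No promoter of the 10 genes differed between genotypes past the threshold. With limma on log2(signal + 1), 0 of 9930 promoters (0%) had an adjusted p under 0.05, the smallest being 0.683, and 132 had an unadjusted p under 0.05. Of the 10 genes 8 passed the filter, Mttp and Cd36 being too low, and 0 of the 8 were past the threshold, with adjusted p from 0.683 to 0.942 and 0 with an unadjusted p under 0.05. Relative to the median promoter, 12 of 9930 (0.121%) were past the threshold and 0 of the 8. On the deposited scale the log2 difference, ApcMin/+ minus wild type, was above 0 at 9 of the 10 genes and at 99.2% of tested promoters. Its median over the 8 genes was 0.83 and over all tested promoters 0.85. The SE at the 8 genes was 0.75 to 1.23 on this scale and 0.28 to 0.42 relative to the median promoter (limma). Relative to the median promoter the log2 difference was above 0 at 3 of the 8 (Apob, Fabp2 and Dgat1), with a median of −0.02.

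The genotypes did not overlap at 3 of the 10 genes, Mttp, Fabp2 and Dgat1, all higher in ApcMin/+. Of the 8 tested, 2 were, against 38.5% of all tested promoters, and 0 were lower without overlap, against 0.161%. Relative to the median promoter, 3 of the 8 were higher without overlap (Apob, Fabp2 and Dgat1) and 2 lower (Apoa4 and Apoc3), where 13.1% and 14.3% of all tested promoters were. Fabp2, counted as higher on both scales, passed the filter only through its ApcMin/+ signal, since both wild-type values (1.39 and 1.68) were under 2. Its place in these counts is therefore no support for a difference. With counts this small the members' shares are a description. Without ApcMin/+ replicate 2, which leaves the most enriched library alone in its group, 6479 promoters and 3 of the 8 genes (Fabp1, Fabp2 and Dgat2) were past the threshold. On the relative scale none of the 8 was past it whichever library was left out.

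No gene of a wider list of 39 genes around fat absorption was called either. Of these, 25 passed the filter and 0 were past the threshold in either direction on either scale. On the relative scale 8 were above 0 and 17 below, with a median of −0.06, and 1 of the 25 was higher and 6 lower without overlap between genotypes, where 13.1% and 14.3% of all tested promoters were. On the deposited scale 5 of the 25 were higher without overlap and 0 lower, against 38.5% and 0.161%. Here too a gene could pass the filter through its ApcMin/+ signal alone. By role, 1 of 7 other apolipoproteins passed the filter, 8 of 11 genes of triglyceride synthesis, 6 of 8 of uptake and sterol handling, 7 of 8 of chylomicron assembly and export, and 3 of 5 of lipid droplets and lipolysis.

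The 3 highest relative differences in this list were at Sar1b, Gpat3 and Soat2. Sar1b encodes the GTPase of the vesicles that carry chylomicrons out of the endoplasmic reticulum, and its signal was 3.68 and 3.52 in wild type and 17.8 and 5.06 in ApcMin/+, a relative difference of 0.36 ± 0.29 (limma, SE). Gpat3, for the first acylation of glycerol 3-phosphate, had 10.3 and 5.58 in wild type and 38.5 and 7.81 in ApcMin/+ (0.26 ± 0.33). Soat2, the enzyme that esterifies absorbed cholesterol, had 10.5 and 3.54 in wild type and 22.7 and 8.38 in ApcMin/+ (0.19 ± 0.30). Sar1b did not overlap on the deposited scale, whereas Gpat3 and Soat2 did.

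The 3 lowest were at Apoc2, Abca1 and Surf4. Apoc2, the activator of lipoprotein lipase, had 3.64 and 1.55 in wild type and 2.81 and 1.77 in ApcMin/+ (−0.94 ± 0.51). Abca1, the transporter that loads cholesterol onto apolipoprotein A-I, had 2.56 and 1.57 in wild type and 5.69 and 1.24 in ApcMin/+ (−0.50 ± 0.50). Surf4, a cargo receptor for secreted lipoproteins, had 6.82 and 4.42 in wild type and 14.2 and 4.39 in ApcMin/+ (−0.38 ± 0.28). All 3 overlapped on the deposited scale, and the adjusted p of all 6 genes relative to the median promoter was 1.00 (limma).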

How the data were processed

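H3K4me3 CUT&RUN libraries from villus cells of 2 wild-type and 2 ApcMin/+ mice were analysed and grouped by the genotype in the labels. RNA-seq, other antibodies and mice of other ages were not analysed here. The authors trimmed read pairs with Novocraft, aligned them to mm10 with Bowtie2, removed duplicates with Picard and low-quality alignments with samtools, selected fragments by size and wrote tracks with HOMER. The deposited values are signal: the authors scaled per-base coverage to 10000000 tags in each library and subtracted no control. Since these are not counts, a linear model on log values was fitted. Fragments at a window were its summed signal times the tags per unit of signal.

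Depth was 1430000 to 5470000 tags, and the median tested promoter held 13.0 (wild-type replicate 1) to 97.7 fragments (ApcMin/+ replicate 1). Promoters whose signal within 1000 bp of the gene 5′ end averaged 2 or more were tested by limma 3.58.1 (trend, R 4.3.3) after log2(signal + 1), and p-values were adjusted over all of them (Benjamini-Hochberg, threshold 0.05). The fit was tested on simulated data with the depths of the 4 libraries but not their difference in enrichment, so that test does not cover the spread between these libraries. An exact permutation test of 2 libraries against 2 cannot pass the threshold and was not used. Relative values subtract the median log2 value of the library's tested promoters. Enriched regions were called on the mean of the 4 tracks in 100 bp bins wherever it exceeded the genome mean 5 times, bridging gaps up to 500 bp and dropping regions under 300 bp. Python 3.11.15, numpy 2.4.6, pandas 2.3.3 and matplotlib 3.10.9 were used for the rest.

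The genes, lists and tests were chosen with earlier results of these data known. The rule for naming takes all 10 genes, the 3 highest and 3 lowest relative differences of the wider list with any gene of it past the threshold, and protein-coding genes starting within 50000 bp of the Apoa1 cluster. Alternatives tried were the scaling, window, filter, pseudocount (0.1 and 5), trend, choice of transcript start, a replicate block and leaving out each library.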

Additional observations from a re-analysis of the deposited data

How the results depend on the processing

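Of the 8 genes tested, none was past the limma threshold under any alternative but 1, leaving out ApcMin/+ replicate 2 without centring, where the count was 3 (range over the fits leaving out a library 0 to 3). The count over all promoters was 0, and became 12 with each library centred on its median tested promoter, 2 with quantile normalization, and 0 to 6479 when each library was left out, the lone library of a group being assumed to vary like the others. With centring and wild-type replicate 1 left out it was 2, without wild-type replicate 2 it was 18, without ApcMin/+ replicate 1 it was 0 and without ApcMin/+ replicate 2 it was 30. The number of the 10 genes whose genotypes did not overlap was 3, and became 6 with centring, 5 with a window of 500 bp, 1 with a window of 2000 bp, 1 at the annotated start with the highest signal, 4 to 9 when each library was left out, and in the order just given 6, 8, 10 and 8 when it was left out with centring. The share of all tested promoters that was higher without overlap was 38.5% with all 4 libraries. It was 37.0% with a window of 500 bp, 40.1% with 2000 bp and 37.9% at the start with the highest signal. Leaving out a library, in the same order, gave 87.5%, 41.7%, 38.6% and 98.9%, and without ApcMin/+ replicate 1 a further 9.11% were lower. With centring and all 4 libraries 13.1% were higher and 14.3% lower. With centring and a library left out, in that order, 29.0%, 33.5%, 28.8% and 32.8% were higher. The shares that were lower were 31.3%, 34.4%, 30.0% and 34.8%. The replicate numbers are not said to pair the mice, and the deviations of same-numbered libraries correlated at r = 0.196 over promoters, which are not independent. With a replicate block 1 promoter passed, or 15 with the block and centring, where 6 genes did not overlap, and no call at the 10 genes changed. The median log2 difference over the 10 genes ran on the deposited scale from 0.122 without ApcMin/+ replicate 1 to 1.64 without ApcMin/+ replicate 2, and was −0.019 with centring.

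With centring, also with the block, the log2 difference was below 0 at Apoa1 (−0.0338), Apoa4 (−0.482), Apoc3 (−0.777), Fabp1 (−0.00507) and Dgat2 (−0.101). With quantile normalization it was −0.0642, −0.416, −0.732, −0.00776 and −0.216 at the same genes, and at Apoc3 with the 500 bp window −0.141. Leaving out a library gave −0.343 to 1.09 at Apoa4, −0.595 to 0.748 at Apoc3 and −0.388 to 1.89 at Dgat2. Leaving out a library with centring, in the same order, gave −0.0227, −0.0450, −0.0662 and −0.00147 at Apoa1, −0.0327, −0.932, −0.470 and −0.495 at Apoa4, and −0.456, −1.10, −0.722 and −0.832 at Apoc3. It gave −0.0242 and −0.0676 at Fabp1 without wild-type replicate 1 and ApcMin/+ replicate 2, and −0.138, −0.0644 and −0.515 at Dgat2 without the first 3 libraries. Apart from the scaling, the cause of these turns was not tested. Of the genes below the filter, Mttp was at −0.0986 with centring without wild-type replicate 1 and Cd36 at 0.0304 without ApcMin/+ replicate 2. Apob and Dgat1 kept a difference above 0 under all 21 alternatives. Fabp2 did so under the 20 it was fitted in, all but the filter at a mean signal of 5. In the alternatives without centring or quantile normalization, 66.5% to 99.9% of all tested promoters were above 0 too. With centring or quantile normalization the difference was 0.0740 to 0.123 at Apob and 0.0684 to 0.176 at Dgat1, each time below its SE. At Fabp2 it was 0.152 to 0.760. Depth limits Cd36 in every library and Fabp2 and Mttp in wild-type replicate 1.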
